A study of Mus musculus with 23 samples.

Results

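The mitochondrial ribosomal protein genes were taken as the rows of the quadriceps and epididymal fat count tables whose symbols begin with Mrpl or Mrps followed by a number. The rule found 77 genes, 48 Mrpl and 29 Mrps, of 17194 genes listed in either table, and all 77 were listed in both tables. Of these, 76 encode subunits of the mitochondrial ribosome, 50 of the large and 26 of the small subunit. Mrps30 and Mrps18a are counted with the large subunit, where their proteins sit despite the names. Mrps36 is set apart, since its protein belongs to the 2-oxoglutarate dehydrogenase complex.

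The study asked what interleukin-6 made by pancreatic tumor cells does to muscle and fat in cancer cachexia. RNA was sequenced from male mice that were 8 weeks old at surgery, of strain C57BL/6 in the sample labels and C57BL/6J in the methods. No tumor mice had sham surgery, KPC mice carried an orthotopic tumor from a mouse pancreatic cancer line that had passed through transfection as a control clone, and KPC IL6KO mice carried a tumor from 1 clone of that line with Il6 deleted by CRISPR. The hosts themselves were not edited, and all groups were killed when the KPC group was wasted. Quadriceps was taken from 3 mice without tumor, 4 with KPC tumors and 4 with KPC IL6KO tumors, and epididymal fat from 4 mice of each group. The muscle and fat libraries carry different sample numbers, and whether they came from the same animals was not given in the sources used here. The methods describe a separate library preparation for each tissue, from 100 ng of RNA for muscle and 500 ng for fat. They also name a different library kit for each tissue, so tissue and library preparation cannot be told apart. Whether the tissues shared a sequencing run is not stated in the methods, so a run effect cannot be told apart either. Each IL6KO result rests on a single clone, as does each KPC result, so the deletion and the clone cannot be told apart. The paper also reports larger tumors in KPC than in KPC IL6KO mice, and no correlation of tumor mass with muscle or fat pad mass. The part of tumor size was not tested here.

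The mitochondrial ribosome translates the few proteins encoded by mitochondrial DNA, all of them subunits of the respiratory chain and ATP synthase. Its RNAs come from mitochondrial DNA, while all its proteins are encoded in the nucleus, made in the cytosol and imported. Skeletal muscle is rich in mitochondria, and many of these proteins have bacterial counterparts while others exist only in mitochondria.

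Libraries held 19259763 to 74907810 counts in quadriceps and 26306377 to 56308545 in fat. The 77 genes took 0.251% to 0.341% of the counts in quadriceps and 0.230% to 0.265% in fat, and no gene had fewer than 160 counts in any library. In bulk tissue, fewer cells of a type and less RNA per cell cannot be told apart. The summed level of fibroblast markers was 1220 to 1330 CPM (counts scaled to a common library total) in no tumor quadriceps, 174 to 290 in KPC and 628 to 991 in KPC IL6KO, and 6 of 6 such markers fell in KPC. Skeletal muscle markers summed to 204000 to 249000 CPM in no tumor, 170000 to 205000 in KPC and 233000 to 251000 in KPC IL6KO, and 4 of 10 fell and 1 rose in KPC. The 4 neutrophil markers measured, of 8 listed, summed to 0.359 to 0.779 CPM, 4.5 to 21.8 and 2.14 to 4.13 in the same order, and all 4 rose in KPC. By the same test, described below, 34.2% of all quadriceps genes fell and 33.4% rose in KPC. The part of these cell types in the quadriceps results was not tested. In fat, epididymis markers summed to 4370 to 115000 CPM and adipocyte markers to 1830 to 30200 CPM, so the pads differed widely in tissue content.

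The promoter windows of the genes with the largest changes in KPC quadriceps are shown first, for genes that rose and a gene that fell. They are RefSeq windows of GRCm38.p6, 300 bases long, and 68 of the 77 genes had one. Mrpl19, which fell next most after Mrps11, had none and is not shown. Capitals mark matches, on either strand, to CGCNTGCG (the core of the NRF1 site), CCGGAAG (ETS), AAGATGGC (YY1), GGGCGG (Sp1), CACGTG (E-box) or TGACGT (CRE). Mrpl41, which rose most, lies on the minus strand at chr2:24975049-24975348. Mrpl9, on the plus strand at chr3:94443086-94443385, and Mrps18b, on the minus strand at chr17:35916391-35916690, tied for the next place. Mrps11, which fell most, is on the plus strand at chr7:78782881-78783180.
Mrpl41: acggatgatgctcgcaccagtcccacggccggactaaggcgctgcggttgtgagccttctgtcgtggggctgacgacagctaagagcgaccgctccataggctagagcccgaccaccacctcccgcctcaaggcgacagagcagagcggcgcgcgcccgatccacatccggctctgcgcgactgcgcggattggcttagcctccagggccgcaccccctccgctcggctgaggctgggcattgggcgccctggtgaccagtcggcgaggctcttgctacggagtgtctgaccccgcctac
Mrpl9: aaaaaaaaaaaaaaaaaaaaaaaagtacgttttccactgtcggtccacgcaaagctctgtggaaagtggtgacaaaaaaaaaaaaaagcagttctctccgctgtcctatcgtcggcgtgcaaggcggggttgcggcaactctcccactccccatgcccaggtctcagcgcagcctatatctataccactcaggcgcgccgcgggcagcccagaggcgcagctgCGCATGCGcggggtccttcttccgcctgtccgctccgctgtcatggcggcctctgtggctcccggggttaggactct
Mrps18b: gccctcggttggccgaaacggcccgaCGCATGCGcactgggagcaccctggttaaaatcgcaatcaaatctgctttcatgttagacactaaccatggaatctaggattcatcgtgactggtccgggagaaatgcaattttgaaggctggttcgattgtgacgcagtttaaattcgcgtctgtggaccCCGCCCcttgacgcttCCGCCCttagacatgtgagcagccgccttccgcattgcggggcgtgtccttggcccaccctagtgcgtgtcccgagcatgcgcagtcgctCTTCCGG
Mrps11: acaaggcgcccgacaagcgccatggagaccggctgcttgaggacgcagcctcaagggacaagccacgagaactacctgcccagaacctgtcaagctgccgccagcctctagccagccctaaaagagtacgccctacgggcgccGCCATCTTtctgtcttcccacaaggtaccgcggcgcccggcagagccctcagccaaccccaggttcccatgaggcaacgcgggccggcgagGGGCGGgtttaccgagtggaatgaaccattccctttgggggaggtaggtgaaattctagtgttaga

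The Mrpl41 window held none of these letters, the Mrpl9 window held 1 NRF1 core, the Mrps18b window held 1 NRF1, 1 ETS and 2 Sp1 matches, and the Mrps11 window held 1 YY1 and 1 Sp1 match. Across the 68 windows, the NRF1 core was in 29.4%, against 19.2% of 9757 windows for all quadriceps genes. ETS letters were in 36.8% against 19.4%, YY1 letters in 17.6% against 5.20%, and Sp1 letters in 50% against 68.6%. E-box letters were in 7.35% against 11.9% and CRE letters in 11.8% against 13.1%. Among windows of genes that rose, ETS letters were in 7 of 21, among those that fell in 10 of 25, and among the others in 8 of 22. A match is a run of letters and not a measured binding site.

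In KPC quadriceps the mitochondrial ribosomal protein genes moved apart, some up and some down, while their summed CPM overlapped between the groups. By edgeR's quasi-likelihood test, with a false discovery rate (FDR) of at most 0.05 over all 12831 genes, 24 of 77 rose against no tumor (33.4% of all genes did), 27 fell (34.2%) and 26 did not pass. With a change of at least 1.5-fold also required, 13 rose (26.7% of all genes) and 15 fell (29% of all genes). Without KPC 3 the latter rises numbered 8, and with libraries scaled by their totals alone 16 rose and 33 fell by FDR, as that scaling moved the median of all genes by -0.20. The shares of these genes that passed were therefore near or below those of all genes. Their median log2 fold change was 0.01, against -0.03 over all genes, and their mean absolute log2 change was 0.523 against 0.958. The no tumor and KPC samples did not overlap for 57 of 77 genes (65.3% of all genes), 28 of them higher in KPC and 29 lower.

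The 77 genes summed to 3069 ± 64.4 CPM in no tumor (SD, n = 3), 3156 ± 287 in KPC (SD, n = 4) and 3080 ± 158 in KPC IL6KO (SD, n = 4). KPC 3 was the highest of these at 3562 CPM, and the groups overlapped. As a share of raw counts the 77 genes took 0.3409%, 0.3375% and 0.3095% in no tumor and 0.2512%, 0.2974%, 0.3271% and 0.3028% in KPC. How flat the sum appears therefore depends on the scaling. The ratio of large to small subunit levels was 2.59 ± 0.046 (SD, n = 3), 2.66 ± 0.073 (SD, n = 4) and 2.59 ± 0.022 (SD, n = 4), and here too the groups overlapped.

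**Figure D1:**
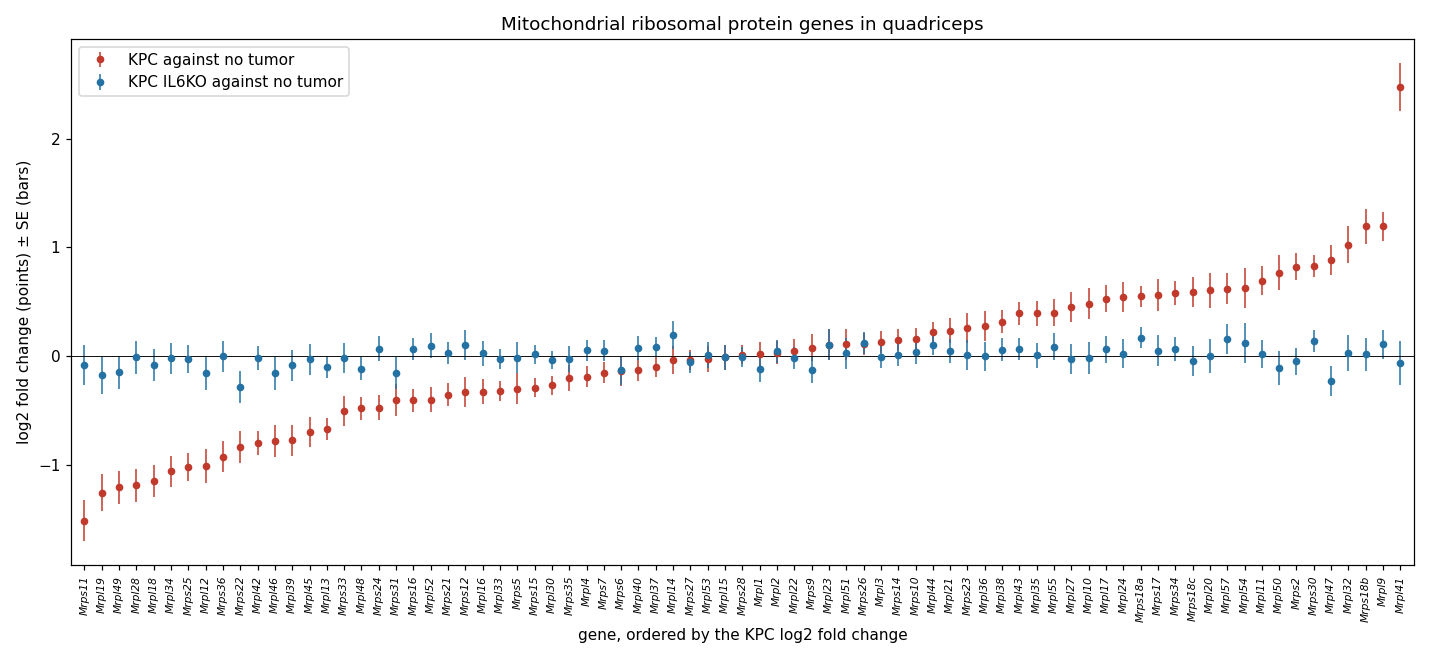
The log2 fold changes of all 77 genes in quadriceps, ordered by the KPC value, with KPC against no tumor in red and KPC IL6KO against no tumor in blue; bars are standard errors. The red points run from -1.52 for Mrps11 to 2.48 for Mrpl41, while the blue points stay between -0.29 and 0.19.

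Mrpl41, a large subunit protein specific to mitochondria, measured 18.5, 18.3 and 16.0 CPM in no tumor, 95.1, 59.2, 118 and 121 in KPC, and 15.2, 17.6, 18.6 and 16.1 in KPC IL6KO. Every KPC sample was above every other sample. The rise over no tumor was 5.57-fold (log2 2.48, SE 0.22, edgeR FDR 4.18e-06).

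Mrpl9, a large subunit protein with a bacterial counterpart, measured 59.1, 53.7 and 51.1 CPM in no tumor, 127, 104, 151 and 118 in KPC, and 55.7, 57.7, 66.8 and 55.1 in KPC IL6KO. KPC was again above both other groups without overlap. It rose 2.29-fold over no tumor (SE of log2 0.14, edgeR FDR 1.79e-05).

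Mrps18b, one of 3 mammalian proteins related to bacterial S18, measured 25.7, 23.3 and 25.3 CPM in no tumor, 58.6, 43.9, 74.3 and 49.8 in KPC, and 24.7, 26.1, 25.9 and 23.4 in KPC IL6KO. It rose 2.29-fold (SE of log2 0.16, edgeR FDR 5.49e-05), and its exons overlap another gene over 30.5% of their length. Its relatives rose less, Mrps18a by 1.46-fold (edgeR FDR 0.00041) and Mrps18c by 1.51-fold (edgeR FDR 0.00251).

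Mrpl32, a large subunit protein matured by a mitochondrial protease, measured 14.4, 14.5 and 16.1 CPM in no tumor and 28.7, 25.6, 42.3 and 25.6 in KPC, a 2.04-fold rise (edgeR FDR 0.000236). Mrpl47 measured 13.4, 12.3 and 11.5 in no tumor and 24.5, 19.0, 20.7 and 27.9 in KPC, a 1.85-fold rise (edgeR FDR 0.000161). Mrps30, a large subunit protein of the central protuberance, measured 25.4, 26.2 and 26 in no tumor and 47.6, 45.0, 50.4 and 40.7 in KPC, a 1.78-fold rise (edgeR FDR 3.35e-05). For all 3 the KPC samples lay above the no tumor samples without overlap (65.3% of all genes did not overlap between these groups).

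Mrps11, a small subunit protein near the decoding centre, fell most. It measured 22.2, 22.8 and 23 CPM in no tumor, 6.07, 10.3, 5.89 and 9.47 in KPC, and 22, 24, 19.4 and 20.1 in KPC IL6KO. Every KPC sample was below every other sample, and the fall was 2.86-fold (log2 -1.52, SE 0.19, edgeR FDR 3.33e-05).

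Mrpl19, a large subunit protein with a bacterial counterpart, measured 24.1, 20.4 and 21.2 CPM in no tumor, 7.87, 10, 6.95 and 11.8 in KPC, and 19.9, 22.2, 17.8 and 17.6 in KPC IL6KO. It was 2.39-fold lower in KPC than in no tumor (SE of log2 0.17, edgeR FDR 6.5e-05), and 36% of its exon bases overlap a gene on the other strand. Mrpl49, which exists only in mitochondria, measured 26.4, 27.8 and 28.5 in no tumor and 8.79, 15.1, 11.4 and 12.5 in KPC, 2.31-fold lower (edgeR FDR 3.64e-05). Both groups of KPC values lay below the no tumor values without overlap.

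Mrpl28, a large subunit protein with a bacterial counterpart, measured 56.7, 56.2 and 57.0 CPM in no tumor and 18.5, 29.7, 22.1 and 28.9 in KPC, 2.28-fold lower (edgeR FDR 4.26e-05). Mrpl18, which belongs to the central protuberance, measured 75.5, 71.1 and 71.0 in no tumor and 27.4, 38.3, 26.3 and 38.6 in KPC, 2.22-fold lower (edgeR FDR 4.09e-05). Mrpl34, another with a bacterial counterpart, measured 31.1, 29.9 and 29.5 in no tumor and 11.5, 17.1, 13.6 and 15.8 in KPC, 2.08-fold lower (edgeR FDR 5.79e-05). None of these overlapped between the groups, nor did 65.3% of all genes.

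**Figure D2:**
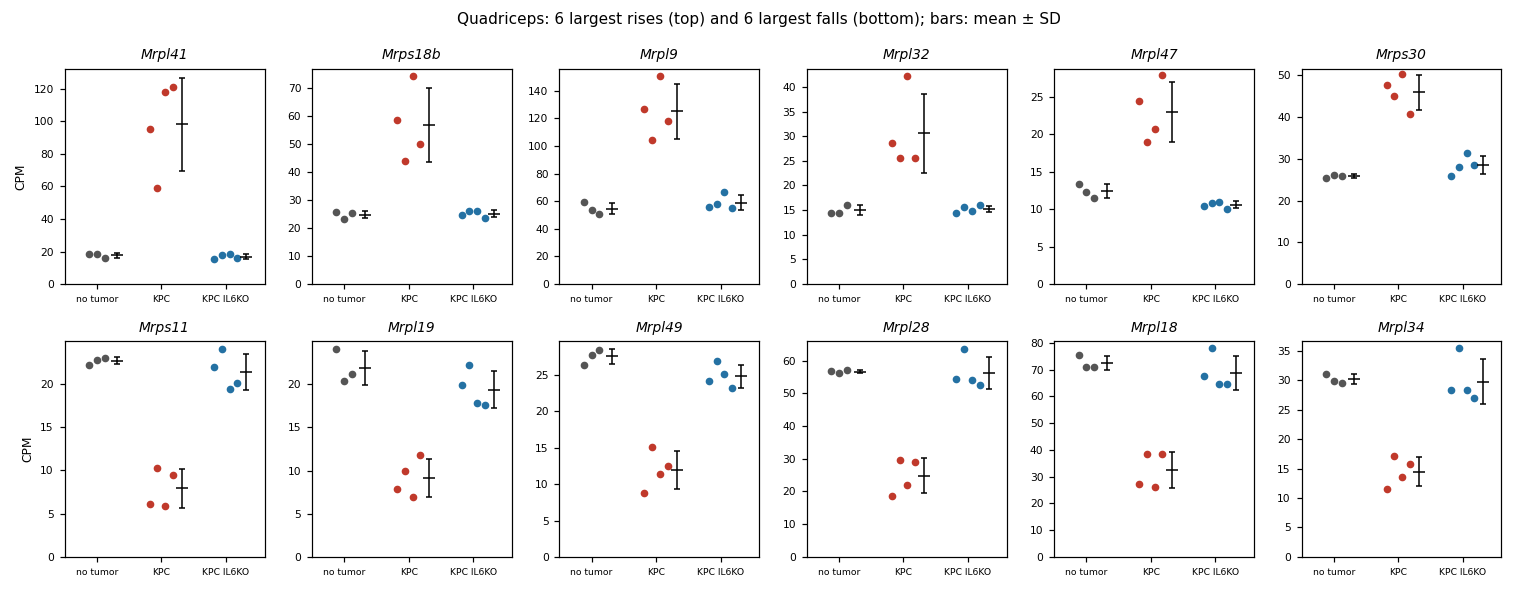
CPM in each quadriceps sample for the 6 largest rises (top) and the 6 largest falls (bottom) in KPC, by group; the black marks are the mean and SD, and every axis starts at 0. Each KPC sample lies outside the range of no tumor and of KPC IL6KO for all 12 genes. For Mrpl41 the values are 59.2 to 121 CPM against at most 18.6. The 12 were picked as the largest changes in these same samples, and 65.3% of all genes did not overlap between KPC and no tumor.

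Within the stalk of the large subunit, where translation factors are recruited, members moved in both directions. Mrpl12, which also binds the mitochondrial RNA polymerase, measured 137, 131 and 128 CPM in no tumor, 47.5, 67.1, 74.7 and 72.1 in KPC, and 117, 139, 115 and 102 in KPC IL6KO, and fell 2.02-fold against no tumor (edgeR FDR 0.000136). Mrpl11, at the base of the same stalk, measured 39.2, 36.3 and 37.6 in no tumor and 55.6, 54.4, 78.1 and 55.6 in KPC, and rose 1.62-fold (edgeR FDR 0.000701). Mrpl10, which holds Mrpl12 in the stalk, rose 1.4-fold (edgeR FDR 0.0113). By CPM per kilobase of exon, Mrpl12 was highest of the 77 in no tumor quadriceps at 86.2 ± 2.76 (SD, n = 3). In KPC quadriceps Mrpl41 was highest at 111 ± 32 per kilobase (SD, n = 4). In KPC IL6KO Mrpl12 was again first at 77 ± 10.1 and Mrps21 next at 71.6 ± 3.15 (SD, n = 4), a gap smaller than the spread. Over all quadriceps samples the order began with Mrpl12 at 67.1 and Mrps28 at 66.9 per kilobase, and Mrps35 and Mrps22 were lowest at 1.66 and 2.80.

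Mrpl45, an anchor of the ribosome at the inner membrane, measured 61.4, 57.1 and 56.2 CPM in no tumor and 26.6, 36.9, 42.8 and 37 in KPC, and fell 1.63-fold (edgeR FDR 0.000896). Mrps36 fell 1.90-fold (edgeR FDR 0.000156) and Mrps22 fell 1.79-fold (edgeR FDR 0.000415). Mrps12, a protein of the decoding centre, was 1.26-fold lower at an edgeR FDR of 0.0491, and it was not past 0.05 under 14 of 19 alternative settings. The named genes Mrpl3, Mrpl44, Mrps6 and Mrps27 did not pass against no tumor, at log2 changes of 0.13, 0.22, -0.14 and -0.03 and edgeR FDR of 0.286, 0.0524, 0.367 and 0.763 in that order.

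By place in the ribosome the counts are read against the 33.4% of all genes that rose and the 34.2% that fell. Of the large subunit genes 19 of 50 rose and 16 fell (median log2 0.08), and 5 of 26 small subunit genes rose and 10 fell (median -0.15). Genes with a bacterial counterpart and those specific to mitochondria were alike in this respect, with 14 up and 15 down of 46 and 10 up and 11 down of 30. Mrps18a and Mrps18b, though related to bacterial S18, were counted with those specific to mitochondria. Of the central protuberance genes 2 of 7 rose and 4 fell, of those at the polypeptide exit 3 of 8 rose and 2 fell, and of those near the decoding centre 0 of 5 rose and 2 fell. No list was tested against another or against all genes.

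Neighbours with close starts, protein-coding genes on opposite strands with starts at most 1000 bases apart, were listed for 27 of the genes in 26 pairs. Pairs that overlap at their 5' ends were included, so not all of them are divergent. In 11 pairs both genes passed FDR in KPC against no tumor, 7 in the same direction (63.6%) and 4 in opposite directions, and among all such quadriceps pairs 227 of 377 moved the same way (60.2%). Mrps11 and Mrpl46, which face each other with starts 412 bases apart and overlapping exons, both fell (log2 -1.52 and -0.78). Mrpl49 fell while its neighbour Fau, a cytosolic ribosomal protein gene with a start 59 bases away, rose (log2 0.77). Mrpl18 fell while Tcp1 rose (log2 0.96), and 10.1% of the Mrpl18 exon bases overlap Tcp1. Mrpl32 and Psma2 both rose (log2 1.03 and 2.01). Mrpl41 and Pnpla7, with starts 935 bases apart, both rose as well (log2 2.48 and 2.07). Over 20% of exon bases were shared with another gene for 6 of the 24 genes that rose by FDR. The same held for 2 of the 27 that fell and 2 of the 26 that did not pass. Whether the count was made by strand was not given, so reads of overlapping partners cannot be told apart.

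Other genes of mitochondrial translation also moved in both directions in KPC quadriceps, where 33.4% of all genes rose and 34.2% fell. Of 25 assembly factors 10 rose, Malsu1 most (log2 2.01), and 11 fell, Ftsj2 most (log2 -2.36). Of 15 translation factors 2 rose, among them Gfm1 (log2 0.34), and 6 fell, Taco1 most (log2 -1.62). Of 20 mitochondrial aminoacyl-tRNA synthetase genes 3 rose, Iars2 most (log2 0.79), and 9 fell, Qrsl1 most (log2 -1.34). Of 6 ribosome subunits named outside the Mrp series 1 rose, Aurkaip1 (log2 0.31), and 4 fell, Ptcd3 most (log2 -0.96).

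The next counts too are read against the 33.4% of all genes that rose and the 34.2% that fell. Of 8 mitochondrial transcription genes 3 rose, Tfb2m most (log2 0.94), and 0 fell, Polg2 being lowest at log2 -0.36 without passing (edgeR FDR 0.115). Of 12 regulators 5 rose, Myc most (log2 1.87), and 4 fell, Ppargc1b most (log2 -2.87). The nuclear subunits of oxidative phosphorylation were mostly lower, with 1 of 76 up and 51 down (median log2 -0.43), while 65 of 75 cytosolic ribosomal protein genes rose and 0 fell (median log2 0.61). The mitochondrial ribosomal protein genes lay between them, with a median of 0.01.

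**Figure D3:**
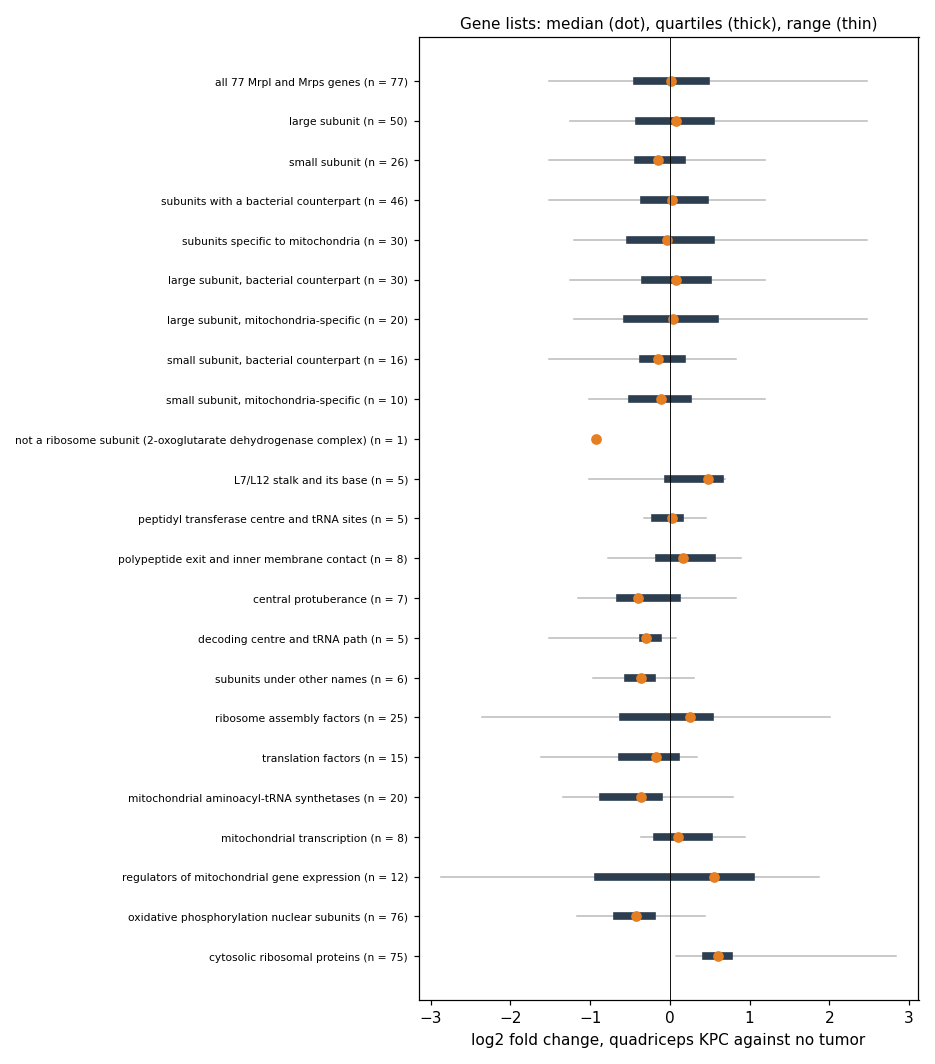
Spread of the log2 fold change in KPC against no tumor quadriceps for gene lists, with the median as a dot, the quartiles as a thick bar and the range as a thin line. The mitochondrial ribosomal protein lists straddle 0, oxidative phosphorylation sits below (median -0.43) and cytosolic ribosomal proteins sit above (median 0.61).

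In KPC IL6KO quadriceps no mitochondrial ribosomal protein gene passed the test against no tumor (0% of all genes did). The study, also with edgeR at these thresholds, reported a small number of altered genes in this comparison. The reason for this difference was not tested. None of the 77 had an unadjusted p under 0.05, against 6.91% of all genes, and DESeq2 and edgeR's likelihood ratio test also called 0 of the 77. The log2 fold changes ran from -0.29 for Mrps22 to 0.19, and the smallest edgeR FDR was 0.804. The 95% interval lay inside 1.5-fold for 76 of 77 genes, among them 27 of the 28 that passed FDR and 1.5-fold in KPC. Mrps22 was the exception to that interval, with 14.6, 14.3 and 14.5 CPM in no tumor and 12.8, 12.2, 10.2 and 12.2 in KPC IL6KO (log2 -0.29, 95% interval -0.61 to 0.04). The other smallest p-values were those of Mrps18a (log2 0.17) and Mrpl47 (log2 -0.23).

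KPC against KPC IL6KO quadriceps gave the tumor comparison with the clone that lacks Il6. Here 24 of 77 genes were higher in KPC by edgeR's test (34.4% of all genes) and 27 were lower (33.6%). With 1.5-fold required, 11 were higher (26.4%) and 13 lower (27.3%). Scaling by library totals alone gave 19 higher and 32 lower by FDR. Both comparisons share the KPC samples, so their values are given side by side: Mrpl41 differed by log2 2.54 (SE 0.20, edgeR FDR 1.75e-06) against KPC IL6KO and 2.48 against no tumor, Mrpl47 by 1.12 and 0.89, and Mrpl9 by 1.09 and 1.19.

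In epididymal fat no mitochondrial ribosomal protein gene passed the test in KPC against no tumor (0% of all genes), KPC IL6KO against no tumor (0%) or KPC against KPC IL6KO (0%). The study, also with edgeR at these thresholds, did report altered genes in fat of both tumor groups against no tumor. The reason for this difference was not tested. An unadjusted p under 0.05 was found for 3, 0 and 4 of the 77 genes, against 12.2%, 9.34% and 6.26% of all genes, and DESeq2 and the likelihood ratio test also called 0. The fat libraries varied far more than the muscle libraries, with a common coefficient of variation of 63.5% against 22.7% over all genes. For the 77 genes the gap was smaller, with a median SE of the log2 fold change of 0.17 in fat and 0.13 in quadriceps for KPC against no tumor. The 95% interval lay inside 1.5-fold for 44, 54 and 45 of 77 genes in the 3 comparisons. The median log2 fold changes were -0.06, 0.06 and -0.10, against -0.10, -0.03 and -0.05 over all genes. Summed levels were 2590 ± 313 CPM in no tumor, 2392 ± 137 in KPC and 2525 ± 283 in KPC IL6KO (SD, n = 4 each), and the groups overlapped.

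Mrpl49 had the smallest p in fat KPC against no tumor, at 52.8, 49.3, 41.7 and 33.5 CPM in no tumor, 28.1, 33.2, 31.1 and 30.8 in KPC, and 51.4, 40.9, 45.4 and 34.1 in KPC IL6KO. All KPC samples were below all no tumor and KPC IL6KO samples (log2 -0.53 against no tumor, SE 0.17, edgeR FDR 0.285). Mrpl53 (log2 -0.47, edgeR FDR 0.371) and Mrpl9 (log2 0.44, edgeR FDR 0.405) came next. Against KPC IL6KO the smallest p was that of Mrps25 (log2 -0.67, edgeR FDR 0.664), then Mrpl49 (log2 -0.48) and Mrpl30 (log2 0.34), and for KPC IL6KO against no tumor those of Mrpl15 (log2 0.41), Mrpl23 (log2 0.33) and Mrpl19 (log2 0.32, edgeR FDR 0.658). By CPM per kilobase of exon, Mrps6 (56.5) and Mrps21 (43.0) were highest in fat and Mrpl23 (1.93) and Mrps10 (2.68) lowest.

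Mrpl37 varied most, with 616, 45.5, 352 and 37.1 CPM in no tumor, 63.9, 168, 156 and 116 in KPC, and 41.6, 418, 46.1 and 38.2 in KPC IL6KO. The epididymis marker Gpx5 was at 21300 to 55000 CPM in the 7 libraries with Mrpl37 at 63.9 CPM or more (all 4 KPC pads, no tumor pads 5 and 7, and KPC IL6KO pad 6). It was between 4.69 and 85.8 CPM in the 5 remaining libraries. Mrps6, at 141, 73.9, 126 and 69.5 in no tumor, was high in pads 5 and 7 of that group and, at 158, in pad 6 of KPC IL6KO. In the 4 KPC pads, where Gpx5 was high too, Mrps6 was at only 76.7, 85.6, 77.7 and 67.8 CPM. KPC IL6KO pads 5, 7 and 8, where Gpx5 was low, had 29.8, 80.8 and 51.2. The part of epididymal tissue in these levels was not tested, and Gpx5 was high in all 4 KPC pads but in 2 of 4 no tumor and 1 of 4 KPC IL6KO pads.

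**Figure D4:**
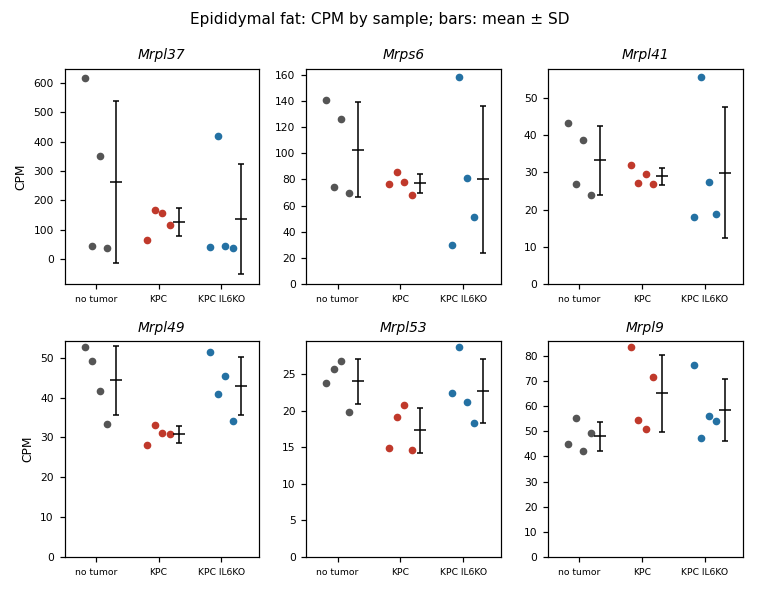
CPM in each fat sample for Mrpl37, Mrps6 and Mrpl41 (top), whose highest values are in no tumor pads 5 and 7 and KPC IL6KO pad 6, and for the 3 genes with the smallest p in KPC against no tumor (bottom); black marks are the mean and SD. For Mrpl49 the 4 KPC samples, at 28.1 to 33.2, lie below the others.

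The KPC response was compared between the tissues in a single edgeR fit over the 12599 genes in both tables. That fit treated all libraries as independent, though whether the tissues share animals was not given. It also estimated the spread over both tissues together, though the fat libraries varied far more. The KPC response differed for 34 of the 77 genes (38.6% of all genes), 13 with the quadriceps value higher and 21 lower. The higher count was 6 without quadriceps KPC 3 and 8 without fat KPC 8, and with RLE scaling the split was 17 and 19. By limma voom with quality weights by tissue the split was 8 and 22. Differences in the single fit lay a median of -0.11 from those between the separate fits (-0.15 to -0.10 over the 77 genes). Mrpl41 differed by log2 2.55 (SE 0.42, edgeR FDR 0.00013) in that fit, and its values in the separate fits were 2.48 in quadriceps and -0.20 in fat. Mrps18b differed by 1.25 (edgeR FDR 7.72e-05) and Mrpl32 by 0.99 (edgeR FDR 0.0012). On the other side, Mrpl19 differed by -1.53 (edgeR FDR 0.00016), Mrps11 by -1.53 (edgeR FDR 0.000293) and Mrpl18 by -1.29 (edgeR FDR 0.000323). Of the 13 genes that rose by 1.5-fold in quadriceps, 5 were above 0 in fat with a median of -0.04, and of the 15 that fell, 10 were below 0 with a median of -0.13. These shares were near those of all 77 genes in fat, of which 28 were above 0 and 49 below, with a median of -0.06.

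**Figure D5:**
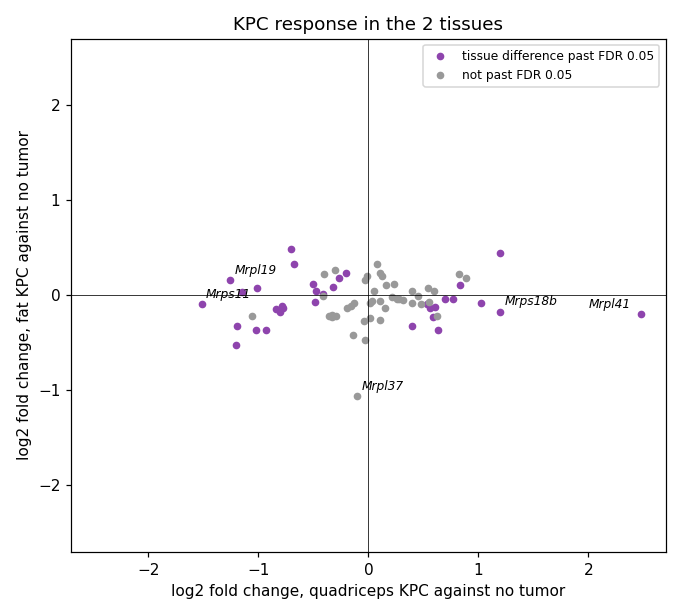
The log2 fold change of each of the 77 genes in KPC against no tumor, quadriceps on the x axis and fat on the y axis; purple points passed the test of the tissue difference. The quadriceps values run from -1.52 to 2.48, while most fat values lie near 0 apart from Mrpl37 at -1.06.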

How the data were processed

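The authors aligned reads with STAR to mm10 and counted them with featureCounts 1.5.1. The deposited values are raw counts per gene. The sources disagree on the library kit: the labels give TruSeq RNA Access for both tissues, and the methods give TruSeq Nano DNA for muscle and TruSeq Stranded mRNA for fat. Both call the libraries strand-specific, and the strand setting of the count was not given in the sources used here. Genes were tested with edgeR 4.0.16 in R 4.3.3 (TMM scaling, quasi-likelihood test, Benjamini-Hochberg over all genes, 3 groups in a fit for each tissue), with FDR 0.05 and a 1.5-fold change as in the study. CPM use TMM-scaled totals. Libraries held 19259763 to 74907810 counts. Samples were grouped by their labels. A muscle sample removed by the authors was not analysed here. Where nothing says otherwise, p-values measure the spread between mice of a group. Named genes were the fixed set of 14 plus, by rule, the largest changes, the smallest p-values, the highest and lowest levels and the largest tissue differences. The genes and lists were chosen with earlier results of these data known. Alternatives were DESeq2 1.42.0, limma 3.58.1, other scalings and filters, a replicate block and leaving out each library. Positions are from GENCODE M21 and promoters from RefSeq (GRCm38.p6). The pipeline was tested on simulated data. The first acceptance rule, on the share of altered genes recovered, was not met in fat. It was replaced, after that result, by a check of fold estimates, signs and false calls and by a repeat at low dispersion, where recovery was high. At its own dispersion fat recovered far fewer of the altered genes, drawn from all genes, than quadriceps, and often missed changes of several-fold, so an absence of calls in fat does not show an absence of change.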

Additional observations from a re-analysis of the deposited data

Results flagged for a closer look

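Of 175 groups of 4 libraries examined, 12 had 1 library far from the others, and chance gives about 1 in 20. In quadriceps KPC, KPC 3 was high for Mrpl11 (78.1 CPM, others 54.4 to 55.6), Mrps18c (27.9, others 18.9 to 19.9) and Mrpl53 (53.9, others 39.6 to 41.6). In KPC IL6KO quadriceps, Mrpl28 was high in KPC IL6KO 2 (63.6, others 52.6 to 54.4). In fat, KPC 5 was high for Mrps30 (36.2, others 24.9 to 26.7), Mrpl11 (48.1, others 37.8 to 39.5) and Mrpl18 (66.8, others 38.0 to 41.7), and KPC 8 was low for Mrps12 (12.3, others 19.4 to 20.5). KPC IL6KO 5 was high for Mrpl15 (55.4, others 27.4 to 31.9), Mrps30 (36.9, others 26.1 to 27.8) and Mrps11 (23.7, others 14.4 to 15.5). No tumor 6 was high for Mrps22 (17.7, others 12.9 to 13.5).

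The KPC response differed between quadriceps and fat, by edgeR's test of the difference, for 34 of the 77 genes, against 38.6% of all genes. The log2 differences, quadriceps minus fat, were 2.55 for Mrpl41, 1.25 for Mrps18b, 0.99 for Mrpl32, -1.53 for Mrpl19, -1.53 for Mrps11 and -1.29 for Mrpl18. Tissue and library preparation cannot be told apart here, and whether the tissues shared a sequencing run is not stated in the methods.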

How the results depend on the processing

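In quadriceps KPC against no tumor, scaling by library totals alone moved the median of all genes by -0.20 and gave 7 genes up by FDR and 1.5-fold together (called, against 13) and a median log2 of -0.18 (16 up and 33 down by FDR, against 24 and 27). Against KPC IL6KO it gave 7 called up and a median of -0.13 (19 up and 32 down by FDR). Leaving out 1 library gave 8 (without KPC 3) to 17 genes called up, 14 to 15 called down, 23 to 26 up and 23 to 29 down by FDR, and medians of -0.04 to 0.07. Against KPC IL6KO the ranges were 8 to 13, 11 to 16, 22 to 25, 25 to 30 and -0.06 to 0.05. For KPC IL6KO against no tumor, and in fat, every count was 0 under each alternative run. Their medians with 1 library left out were -0.03 to 0.02 in quadriceps and, in fat, -0.11 to 0.025, 0.01 to 0.14 and -0.13 to -0.07, and library totals alone gave -0.08 in quadriceps and -0.04 in fat KPC against KPC IL6KO. The tissue difference gave 26 to 38 genes. Of these, the number higher in quadriceps was 13, with 6 (without quadriceps KPC 3) to 16 (without fat KPC 5) when 1 library was left out, 8 by limma voom and 17 with RLE scaling. The cause was not tested. Of 2752 values of single genes, 2624 kept their sign and side of the FDR threshold, 15 were no longer past it, 3 newly passed it, and 110 changed sign without being past it in either fit.

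Replicate numbers were not taken as pairs in the main fits. Same-numbered libraries of different groups correlated at a median of 0.06 (-0.16 to 0.27) in quadriceps and 0.17 (-0.54 to 0.65) in fat. Differently numbered libraries correlated at a median of -0.03 (-0.24 to 0.27) and -0.13 (-0.65 to 0.62), so the ranges overlapped. With a replicate block, 24 genes rose and 26 fell in quadriceps KPC. No gene had fewer than 160 counts in any library.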
